A study of Mus musculus with 4 samples.

Results

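The ATF4 amino acid stress response is represented here by 10 genes, *Atf4*, *Ddit3*, *Trib3*, *Asns*, *Psat1*, *Phgdh*, *Slc7a11*, *Chac1*, *Sesn2* and *Ddit4*, taken by symbol as the factor and well-known targets of it. They are 10 of the 23420 gene symbols counted, and all 10 had enough reads to be tested. RNA-seq compared cervical motor neurons (MNs) made from WT E14 cells, a mouse embryonic stem cell line, with those from *Patz1* KO cells, edited from E14 with CRISPR/Cas9, with 2 libraries for each genotype. PATZ1 is a zinc finger DNA-binding protein. All cells were kept in LIF with MEK1/2 and GSK3 inhibitors and then grown as embryoid bodies with all-trans retinoic acid and a smoothened agonist. The labels name no treatment that limits amino acids or oxygen or stresses the endoplasmic reticulum (ER). *Patz1* KO lines were single clones, several were made, and the labels do not say which clone is behind each library. The replicates were described as separate differentiations, so p-values measure the spread between differentiations, and whether they also span clones is not given. The cells are taken as MNs from their source and cell type labels, although the sample titles say ESC.

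ATF4 is a transcription factor at the centre of the integrated stress response. Kinases that sense uncharged tRNA, unfolded protein in the ER, viral RNA or lack of haem phosphorylate the initiation factor eIF2, which slows most translation but lets the *Atf4* mRNA be translated through its upstream reading frames. ATF4 then joins a C/EBP-family partner on a composite DNA element and raises genes that make, import and charge amino acids. The same response includes genes that restrain the growth kinase complex mTORC1 and, when stress lasts, genes of cell death. Because ATF4 is set largely by translation, its mRNA level is not a measure of its protein, and no protein data were used here.

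The composite element that ATF4 and C/EBP factors bind is written TGATGNAA, and its letters were searched on both strands of 300-base RefSeq windows (GRCm38.p6, the mm10 assembly) that span annotated transcription starts. They were found in windows of 4 of the 10 genes (*Asns*, *Chac1*, *Slc7a11* and *Trib3*), against 4.51% of the 27025 genes in the RefSeq table. The 10 genes were chosen as ATF4 and known targets of it, so this comparison is a description and not a test. The stretches of *Asns*, *Chac1* and *Slc7a11* are printed because the 3 genes hold the element and did not share a direction in *Patz1* KO MNs, and that of *Ddit4* because this gene rose most. Capitals mark TGATGNAA on either strand in the first 3 and the core of the hypoxia response element, ACGTG, in the last. Each is read 5′ to 3′ on the strand of the gene.
Asns, chr6:7693214-7693243, minus strand, inside the first annotated exon: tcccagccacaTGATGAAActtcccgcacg
Chac1, chr2:119351019-119351086, plus strand, upstream of the gene: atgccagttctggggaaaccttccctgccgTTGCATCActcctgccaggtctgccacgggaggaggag
Slc7a11, chr3:50443623-50443709, minus strand, upstream of the gene: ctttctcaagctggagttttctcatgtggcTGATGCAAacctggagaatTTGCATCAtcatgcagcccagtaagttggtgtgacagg
Ddit4, chr10:59951923-59951987, minus strand, upstream of the gene: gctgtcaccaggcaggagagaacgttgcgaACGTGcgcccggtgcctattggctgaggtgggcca

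*Slc7a11* held the composite element at 2 places within its stretch, and *Trib3* held it after the annotated start, at bases 15 to 22. ACGTG stood in windows of 4 of the 10 genes (*Asns*, *Ddit3*, *Psat1* and *Ddit4*), against 21.8% of all genes. The antioxidant core TGACNNNGC stood in windows of 3 of the 10 (*Asns*, *Phgdh* and *Sesn2*), against 14.0%. A match gives letters only and does not show that a factor was bound there.

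The deposited values were unnormalized read counts per gene, from 14769104 to 23881522 in a library. They were scaled to a common library size (CPM) with edgeR's TMM factors and compared with edgeR's quasi-likelihood test, and p-values were adjusted by the Benjamini-Hochberg method over all genes tested. A gene was called at an adjusted p below 0.05, and every fold change is *Patz1* KO over WT. *Patz1* itself stood at 92.9 ± 1.96 CPM in WT and at 45.1 ± 3.56 CPM in *Patz1* KO (SD, n = 2). Its log2 fold change was -1.04 (adjusted p = 1.1e-07), and its RNA was still counted in both KO libraries. The markers of the labelled cell type were present in all libraries. Of 9 MN markers, 8 were higher in *Patz1* KO, and the 9 summed to 634 to 681 CPM in WT and 1001 to 1101 CPM in KO. The other marker, *Isl1*, stood at 132 and 134 CPM in WT and at 112 and 122 CPM in *Patz1* KO. It was not called (log2 fold change -0.19, adjusted p = 0.0767). Of all genes tested, 24.1% were called higher and 23.8% lower. Markers of other cells also moved: 6 of 8 endoderm markers and 4 of 6 mesenchyme and neural crest markers were lower, with sums of 60.5 to 65.7 against 10.5 to 12.4 CPM and of 130 to 146 against 17.5 to 20.3 CPM. The other 2 markers of the second list, *Foxd3* and *Sox10*, both of neural crest, were higher, and the other 2 of the first were not called. The sum of the 10 neural progenitor and radial glia markers was 2184 to 2299 CPM in WT and 2303 to 2357 CPM in *Patz1* KO, with 4 markers higher and 3 lower. The 8 markers of neurons of any kind summed to 4036 to 4283 CPM in WT and 5874 to 6182 CPM in KO, with 4 higher and 1 lower. Pluripotent stem cell markers (6.04 to 7.17 against 4.99 to 6.20 CPM, 0 of 2 tested called) and endothelial and blood markers (7.86 to 9.50 against 2.98 to 4.58 CPM, 2 of 3 tested lower) were low. No marker of these lists was at 0 in all 4 libraries. Their part in the results for the ATF4 genes was not tested, and in bulk RNA fewer cells of a type and less RNA per cell cannot be told apart.

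The 10 ATF4 response genes did not move one way in *Patz1* KO MNs. *Asns*, *Sesn2* and *Ddit4* rose, *Atf4*, *Slc7a11*, *Psat1* and *Phgdh* fell, and *Ddit3*, *Trib3* and *Chac1* did not pass the test. The 7 genes called of 10 stand beside 47.9% of all 14269 genes tested that were called, the 3 higher beside 24.1% of all genes and the 4 lower beside 23.8%. The median log2 fold change of the 10 genes was -0.17, against -0.00 for all genes tested, and single genes went from -2.27 (*Slc7a11*) to 1.93 (*Ddit4*). In 9 of the 10 genes the CPM ranges of the 2 genotypes did not overlap, as in 74.2% of all genes tested. Their number called is thus to be read against a table in which calls of both directions were common. The 10 genes were chosen with earlier results of these data known, so this comparison is a description and not a test.

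**Figure D1:**
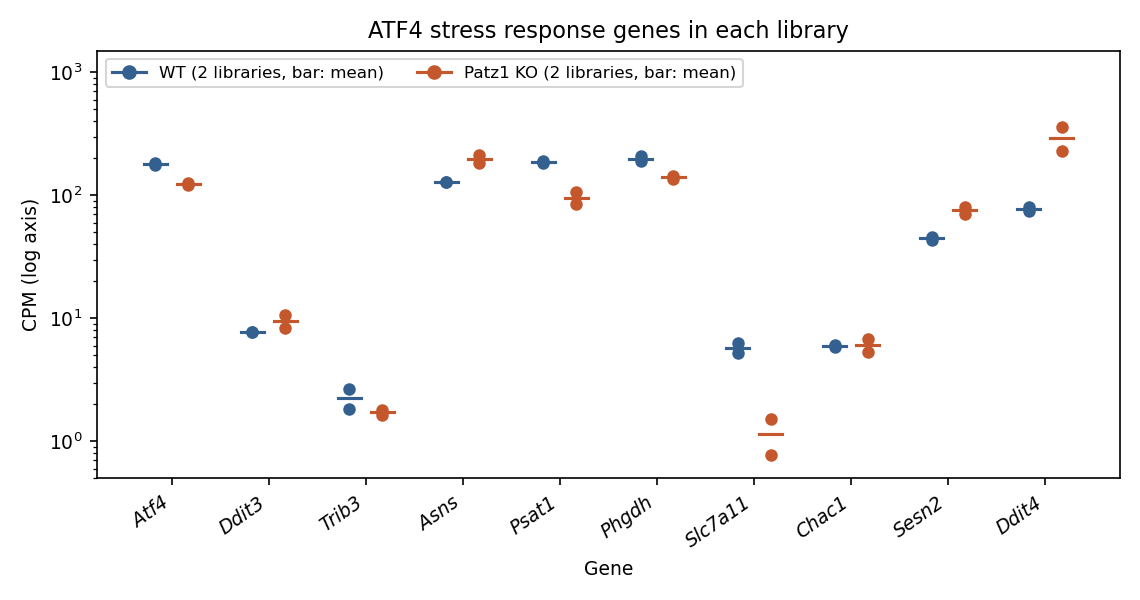
CPM of the 10 ATF4 response genes (log axis) in the 2 WT and 2 Patz1 KO libraries, with 1 point per library and a bar at the mean of each group. Both KO points of Asns, Sesn2 and Ddit4 lie above both WT points, those of Atf4, Psat1, Phgdh and Slc7a11 lie below them, and the points of Chac1 overlap.

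*Atf4* encodes the factor itself and lies on the plus strand of chromosome 15 (80255184 to 80257541 of GRCm38), and none of its exons overlaps another gene. It stood at 175 and 182 CPM in the WT libraries and at 122 and 127 CPM in the *Patz1* KO libraries. The groups were far apart compared with the distance between replicates, and *Atf4* mRNA fell 1.43-fold, or -0.52 on the log2 scale (standard error 0.085, 95% interval -0.70 to -0.34, adjusted p = 7.49e-05 from edgeR). *Atf4* was among the abundant transcripts in both genotypes, at the 96.0th percentile of tested genes by level per length (RPKM, the CPM divided by the kilobases of annotated exon) in WT and at the 93.8th in *Patz1* KO.

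*Ddit3* encodes CHOP, a C/EBP-family factor that ATF4 induces and that is linked to cell death in lasting stress. It stood at 7.72 and 7.80 CPM in WT and at 8.29 and 10.6 CPM in *Patz1* KO. The KO libraries were higher but far from each other, and the log2 fold change of 0.27 did not pass the test (standard error 0.18, 95% interval -0.11 to 0.65, adjusted p = 0.225). Without *Patz1* KO replicate 1 it was called, at 0.46 (adjusted p = 0.0327). Exons of *Ddit3* (chromosome 10, 127290774 to 127296288, plus strand) overlap those of *Mars* and *Gm4189* on the other strand, and the strand setting of the counting is not given in the sources used here, so its level is uncertain.

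*Trib3* encodes a pseudokinase that feeds back on ATF4 and CHOP and lies on chromosome 2 (152337422 to 152344032, minus strand). Few reads were behind its values, with counts of 40 and 29 for WT and of 40 and 30 for *Patz1* KO. In CPM it stood at 2.69 and 1.82 in WT and 1.65 and 1.79 in *Patz1* KO, with both KO libraries just below the lower WT library. The log2 change, -0.39 (standard error 0.32, 95% interval -1.06 to 0.28, adjusted p = 0.331), did not pass the test. The interval spans zero, so at this depth neither a fall nor an equal level was shown. *Trib3* and *Ddit3*, which are widely used as readouts of an active integrated stress response, were thus both without a call in either direction.

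Of the amino acid enzymes, *Asns* went against *Psat1* and *Phgdh*. *Asns* encodes asparagine synthetase, the classical target gene of amino acid limitation, and lies on chromosome 6 (7675169 to 7693254, minus strand). It stood at 128 and 128 CPM in WT and at 185 and 213 CPM in *Patz1* KO. Both KO libraries were well above the WT libraries, which hardly differed, and the log2 fold change was 0.63 (standard error 0.091, 95% interval 0.44 to 0.83, adjusted p = 2.01e-05). Its window held the composite element printed above, at bases -23 to -16 from the RefSeq start. That start lies inside the gene bounds given here, which come from another annotation (GENCODE), so the stretch is within the annotated gene.

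*Psat1* encodes phosphoserine aminotransferase, the second step of serine synthesis from a glycolytic intermediate, and lies on chromosome 19 (15904678 to 15947337, minus strand). It stood at 189 and 182 CPM in WT and at 85.2 and 106 CPM in *Patz1* KO. Both KO libraries were far below both WT libraries, and the fall was 1.95-fold, or -0.96 on the log2 scale (standard error 0.10, 95% interval -1.17 to -0.75, adjusted p = 5.08e-07). *Phgdh*, phosphoglycerate dehydrogenase, catalyses the first step of the same pathway and lies on chromosome 3 (98313170 to 98339990, minus strand). It fell from 208 and 189 CPM to 145 and 136 CPM, with no overlap (log2 fold change -0.50, standard error 0.088, 95% interval -0.68 to -0.31, adjusted p = 0.000177). Of the 50-base stretches of its exons, 47.8% also occur in other annotated genes, mostly the processed copies *Gm7901*, *Gm9347* and *Gm8341*, so its level is uncertain.

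Ratios of counts within a library, which no scaling between libraries can change, differed between the genotypes. They are made from the same counts as the fold changes, so they are not separate evidence. Such a ratio shows a shift of 1 gene against another, and not the direction of either gene. The ratio of *Asns* to *Psat1* counts was 0.676 and 0.705 in WT and 2.17 and 2.01 in *Patz1* KO. Both KO ratios were far above both WT ratios. The ratio of *Asns* to *Atf4* counts was 0.731 and 0.704 in WT and 1.51 and 1.68 in *Patz1* KO. The ratio of *Psat1* to *Phgdh*, the neighbouring steps, was 0.912 and 0.964 in WT and 0.587 and 0.780 in *Patz1* KO, lower in both KO libraries, of which the second was nearer to WT than to the first.

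**Figure D2:**
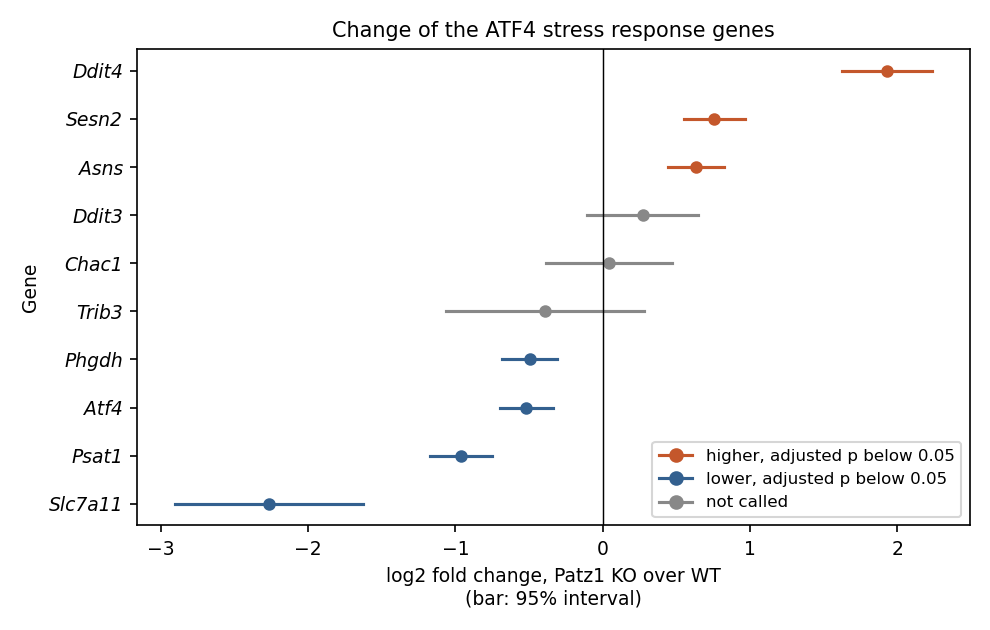
Log2 fold change (Patz1 KO over WT) of the 10 ATF4 response genes from edgeR's fit, with bars for the 95% interval, ordered by value. Ddit4, Sesn2 and Asns lie above zero, Phgdh, Atf4, Psat1 and Slc7a11 below it, and the intervals of Ddit3, Chac1 and Trib3 span it.

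*Slc7a11* and *Chac1* act at opposite ends of glutathione metabolism. *Slc7a11* encodes xCT, the cystine/glutamate exchanger that brings in the sulfur for glutathione, and lies on chromosome 3 (49892526 to 50443614, minus strand). Its counts were 78 and 101 in WT against 37 and 13 in the larger KO libraries, or 5.24 and 6.35 CPM against 1.53 and 0.775 CPM. Both KO libraries were far below both WT libraries, and this was the strongest fall among the 10 genes, 4.81-fold (log2 fold change -2.27, standard error 0.30, 95% interval -2.90 to -1.63, adjusted p = 8.49e-06). Its size rests on few counts: the log2 fold change was -2.89 without *Patz1* KO replicate 1 and -1.92 without *Patz1* KO replicate 2, with an adjusted p below the threshold in both. The summed endoderm markers and the summed mesenchyme and neural crest markers were also lower in both KO libraries, with the exceptions given above, and their part in the fall of *Slc7a11* was not tested.

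*Chac1* encodes a glutathione-degrading cyclotransferase that ATF4 and CHOP induce and lies on chromosome 2 (119351229 to 119354381, plus strand). It stood at 6.11 and 5.85 CPM in WT and at 6.85 and 5.37 CPM in *Patz1* KO. The KO libraries enclosed the WT libraries, and the log2 fold change was 0.04 (standard error 0.20, 95% interval -0.38 to 0.47, adjusted p = 0.875). Its sign turned when *Patz1* KO replicate 1 was left out (-0.15) and after thinning to equal depth (-0.02). The ratio of *Slc7a11* to *Chac1* counts, both of which have the composite element upstream, was 0.857 and 1.09 in WT and 0.223 and 0.144 in *Patz1* KO, with no overlap.

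The 2 restrainers of mTORC1 were both higher. *Sesn2* encodes Sestrin2, a leucine-binding inhibitor of the GATOR2 complex, and lies on chromosome 4 (132492032 to 132510501, minus strand). It rose from 45.8 and 43.7 CPM to 80.7 and 70.5 CPM, or by 0.76 on the log2 scale (standard error 0.099, 95% interval 0.55 to 0.97, adjusted p = 6.58e-06). *Ddit4* encodes REDD1, which acts through TSC2 to turn mTORC1 down and is induced by ATF4, by low oxygen and by p53, and lies on chromosome 10 (59949669 to 59951834, minus strand). It stood at 80.4 and 74.4 CPM in WT and at 230 and 360 CPM in *Patz1* KO. Both KO libraries were far above WT, with a wide distance between them, and the rise was 3.81-fold (log2 fold change 1.93, standard error 0.15, 95% interval 1.62 to 2.24, adjusted p = 1.03e-08). The ratio of *Ddit4* to *Sesn2* counts was 1.76 and 1.70 in WT and 2.85 and 5.10 in *Patz1* KO, with the second KO library furthest from the rest.

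Per length of annotated exon, the order of the 10 genes changed at the top. In WT the levels in RPKM were 79.8 for *Phgdh*, 75.8 for *Atf4*, 46.9 for *Asns*, 44.1 for *Ddit4* and 43.7 for *Psat1*, and the libraries of *Phgdh* and *Atf4* overlapped, as did those of *Ddit4* and *Psat1*. In *Patz1* KO the levels in RPKM were 168 for *Ddit4*, 72.7 for *Asns*, 56.5 for *Phgdh* and 22.5 for *Psat1*, with *Atf4* at 51.9 and 54.0 in its 2 libraries, and *Psat1* overlapped with *Sesn2* (21.8). *Ddit4* went from the fourth place to the first, and *Atf4* and *Phgdh* were passed by *Asns*. *Ddit3* (4.53 RPKM in WT and 5.52 in *Patz1* KO), *Chac1* (3.65 and 3.73), *Trib3* (1.06 and 0.809) and *Slc7a11* (0.416 and 0.0827) followed in this order in both genotypes. The level of *Slc7a11* per length is understated, since its annotated exons add up to 13922 bases with long isoforms included.

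The kinases above ATF4 differed in direction too. *Eif2ak3*, which encodes PERK, the ER stress kinase, rose from 35.2 and 34.8 CPM to 76.4 and 71.1 CPM (log2 fold change 1.07, standard error 0.097, adjusted p = 9.2e-08). *Eif2ak1*, the haem-regulated kinase that also relays mitochondrial stress, fell from 37.1 and 33.5 CPM to 29.0 and 24.7 CPM (log2 fold change -0.39, adjusted p = 0.00898), a call that was lost with DESeq2 (adjusted p = 0.0507) and without WT replicate 1 (0.126). *Eif2ak4*, which encodes GCN2, the sensor of uncharged tRNA and thus the kinase of amino acid shortage, was at 0.02 (standard error 0.12, adjusted p = 0.9), and *Eif2ak2*, the PKR gene, was at 0.25 (standard error 0.11, adjusted p = 0.0659). Neither passed the test. Of the 15 genes of the kinases and of eIF2 control, 1 rose and 3 fell, with a median log2 fold change of -0.08. Fewer genes of this list were called (26.7%) than of all genes tested (47.9%). The other falls were *Eif2s1* (-0.36), the subunit of eIF2 that is phosphorylated, and *Ppp1r15b* (-0.35), the constitutive eIF2 phosphatase subunit, and both lost their call without WT replicate 2 (adjusted p = 0.0676 and 0.123), which left 2 genes of the list called. *Ppp1r15a*, the stress-induced phosphatase subunit GADD34 and itself a target of ATF4, stood at -0.04 (adjusted p = 0.829).

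Among ATF4's partner and relay genes, 12 of 15 could be tested, and 3 rose and 2 fell (41.7% called, all genes 47.9%). The median was 0.07. *Vldlr*, a lipoprotein receptor gene raised in ER stress (log2 fold change 0.88), *Bbc3*, which encodes the BH3-only death protein PUMA (0.89), and *Pmaip1*, which encodes NOXA, another of this kind (1.18), were higher. The last 2 are also targets of p53, and *Pmaip1* lost its call without *Patz1* KO replicate 2 (adjusted p = 0.0517). *Atf5*, a bZIP factor translated much like ATF4, was lower (-0.44), and so was *Cebpg* (-0.22), a dimer partner of ATF4 at amino acid genes. *Atf5* was no longer called without WT replicate 1 (adjusted p = 0.193), and *Cebpg* not with DESeq2 (0.161), no filter (0.11) or library size alone (0.0508), nor without either WT library (0.201 and 0.326) or *Patz1* KO replicate 1 (0.0542). Without WT replicate 1, 3 genes of the list were called. *Atf3*, an early relay factor, was at 0.07 (adjusted p = 0.879). The circulating stress hormones *Gdf15* and *Fgf21* and the stress gene *Nupr1* had 0 to 5 counts in any library and were too rare to test.

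Most of the other serine, glycine and one-carbon enzymes fell with *Psat1* and *Phgdh*. Of the 12 genes of this list, which leaves out *Psat1* and *Phgdh*, 7 were lower and 1 was higher (66.7% called, all genes 47.9%). The median was -0.40. *Shmt1*, the cytosolic serine hydroxymethyltransferase, fell from 28.3 and 27.4 CPM to 10.8 and 8.23 CPM (log2 fold change -1.53, standard error 0.14, adjusted p = 1.09e-07). *Shmt2* (-0.64), its mitochondrial counterpart and an ATF4 target, and *Mthfd2* (-0.66), the mitochondrial folate dehydrogenase that is another, fell as well. *Psph*, the last step of serine synthesis, stood at 21.0 and 18.9 CPM in WT and at 19.2 and 20.7 CPM in *Patz1* KO (log2 fold change -0.00, standard error 0.12, adjusted p = 0.998). *Aldh1l1*, which oxidises formyl-folate and is also a marker of astrocytes and radial glia, rose from 1.68 and 1.07 CPM to 11.4 and 6.02 CPM (log2 fold change 2.69, standard error 0.33, adjusted p = 2.78e-06). The summed astrocyte and oligodendrocyte markers stood at 55.8 to 61.0 CPM in WT and at 72.1 to 86.3 CPM in *Patz1* KO, where 1 of the 2 that could be tested was higher, and their part in this rise was not tested.

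**Figure D3:**
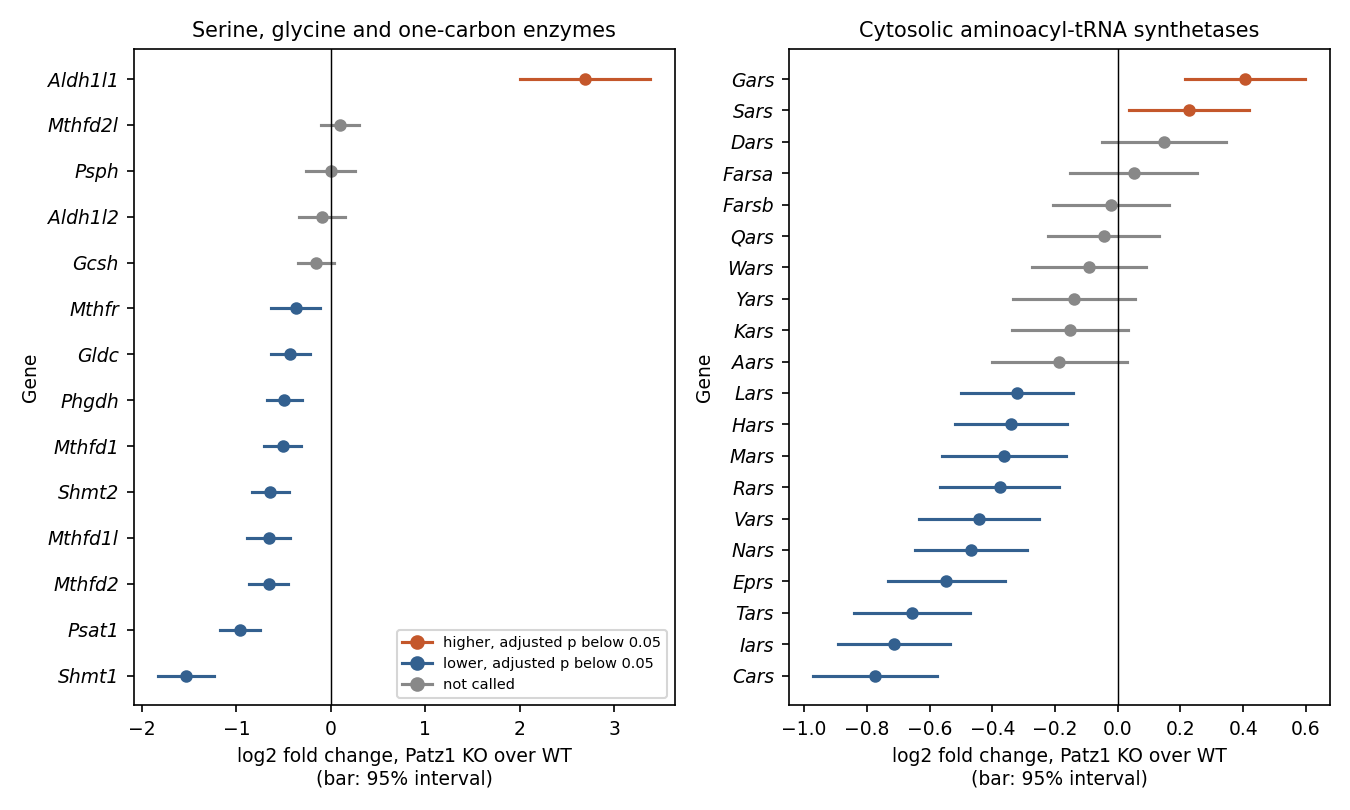
Log2 fold change (Patz1 KO over WT) with its 95% interval for the serine, glycine and one-carbon enzymes, Psat1 and Phgdh included (left), and for the cytosolic aminoacyl-tRNA synthetases (right), on axes of different range. Most genes of both panels lie below zero, with Aldh1l1 on the left and Gars and Sars on the right as the called exceptions.

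The synthetases, many of which ATF4 raises in amino acid stress, were mostly lower where called. Of the 20 cytosolic aminoacyl-tRNA synthetases, 10 were lower and 2 higher (60.0% called, all genes 47.9%), with a median log2 fold change of -0.25. *Cars* (cysteine) fell from 88.2 and 84.8 CPM to 52.7 and 48.3 CPM (-0.77, adjusted p = 2.69e-06), and *Iars* (isoleucine) from 169 and 173 CPM to 104.1 and 104.5 CPM (-0.71, adjusted p = 2.14e-06). *Gars* (glycine) rose from 278 and 274 CPM to 374 and 357 CPM (0.41, adjusted p = 0.00132), and *Sars* (serine) was at 0.23 (adjusted p = 0.0463). Both of the latter lost their call without WT replicate 2 (adjusted p = 0.0553 and 0.345), which left 7 of 20 called, and *Sars* also lost it without WT replicate 1 (0.226), with library size alone (0.108) and with the replicate block (0.051). *Aars*, the alanine synthetase, had a log2 fold change of -0.19 (adjusted p = 0.143) and was called without *Patz1* KO replicate 1 (-0.30, adjusted p = 0.000803).

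Amino acid transporters were lower in 7 of 14 cases and higher in 1 (57.1% called, all genes 47.9%), with a median of -0.32. *Slc7a1*, the cationic transporter that ATF4 raises, fell from 77.7 and 77.3 CPM to 42.7 and 41.0 CPM (log2 fold change -0.89, adjusted p = 5.2e-07), and *Slc38a1*, a glutamine transporter, had a log2 fold change of -0.78 (adjusted p = 1.85e-06). *Slc38a3*, another glutamine transporter, was higher at a low level (1.43, adjusted p = 0.00934), and lost its call with DESeq2 (0.0846) and without WT replicate 1 (0.15). *Slc3a2* (-0.11, adjusted p = 0.327), the shared heavy chain that xCT needs at the membrane, and *Slc7a5* (-0.14, adjusted p = 0.219), the light chain for leucine import, did not pass the test.

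Enzymes of proline, aspartate, glutamate and sulfur amino acids were split, with 4 of 12 higher and 3 lower (58.3% called, all genes 47.9%). The median log2 fold change was 0.15. *Gpt2*, the mitochondrial alanine aminotransferase and an ATF4 target, rose (0.93, adjusted p = 1.26e-07). *Cth*, cystathionine gamma-lyase, which makes cysteine from methionine and is an ATF4 target, fell from 4.23 and 3.52 CPM to 1.07 and 1.01 CPM (-1.88, adjusted p = 6.64e-05). *Glul*, glutamine synthetase, was lower (-0.28, adjusted p = 0.0118), a call lost without either WT library (0.171 and 0.119). Without WT replicate 1, 3 of these 12 genes were called, and without WT replicate 2, 4 were.

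The wider sensing machinery upstream of mTORC1, to which *Sesn2* and *Ddit4* belong by function, had 5 of 17 tested genes higher and 2 lower. That is 41.2% called, below the 47.9% of all genes tested, and the median was 0.04. *Mios*, a GATOR2 subunit (0.59, adjusted p = 0.000124), and *Gatsl2*, a gene of the CASTOR arginine sensor family (0.81, adjusted p = 0.000379), rose. *Seh1l*, a GATOR2 subunit shared with the nuclear pore, fell (-0.53, adjusted p = 0.000107), and *Tsc2*, through which REDD1 acts, was lower (-0.33, adjusted p = 0.0102) in a call lost without either WT library (0.0658 and 0.0918).

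Most genes of the other ER stress arms were not called, and those called went to both sides. Of 20 ER chaperones and genes of the XBP1 and ATF6 arms, 3 were higher and 4 lower, with a median of -0.05. That is 7 of 20 called, a smaller share than the 47.9% of all genes tested. *Dnajc3*, a chaperone that inhibits PERK (-0.69, adjusted p = 7.77e-06), and *Hsp90b1*, GRP94 (-0.49, adjusted p = 0.000548), fell, while *Pdia4*, a disulfide isomerase (0.43, adjusted p = 0.000476), and *Xbp1* (0.33, adjusted p = 0.00829) were higher. *Xbp1* was no longer called without WT replicate 1 (adjusted p = 0.176). *Hspa5*, which encodes BiP, the usual sensor gene of ER load, had a log2 fold change of -0.19 (adjusted p = 0.137). The number of genes called in this list went down from 7 to 4 without either WT library.

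*Slc7a11* is also a target of NRF2, the oxidative stress factor, whose genes are described beside it. Of 15 genes of NRF2 and glutathione, 5 were higher and 6 lower (73.3% called, all genes 47.9%), with a median of -0.11. *Nfe2l2*, which encodes NRF2, fell from 30.3 and 29.1 CPM to 13.0 and 13.4 CPM (-1.18, standard error 0.12, adjusted p = 3.67e-07). *Srxn1*, sulfiredoxin (-0.94, adjusted p = 1.86e-05), *Nqo1*, the quinone reductase (-1.90, adjusted p = 6.8e-05), and *Gclc*, the catalytic subunit of the first step of glutathione synthesis (-0.58, adjusted p = 1e-04), fell too. *Ggt7*, a gamma-glutamyltransferase relative (1.28, adjusted p = 1.21e-07), and *Gpx4*, the lipid peroxide reductase (0.37, adjusted p = 0.00217), were higher, and *Gpx4* lost its call without WT replicate 2 (0.101), where 6 of the 15 were called. With all libraries, 4 genes of the list were not called, among them *Hmox1* (0.00, adjusted p = 0.988) and *Gclm* (0.09, adjusted p = 0.655). Whether the falls of *Nfe2l2* and *Slc7a11* are linked was not tested.

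Genes that respond to low oxygen, as *Ddit4* does, were higher too. The 11 of 12 listed genes that could be tested were all higher, against 24.1% of all genes tested. Their median log2 fold change was 2.01, and *Ddit4* at 1.93 lay close to that median. *Pdk1*, pyruvate dehydrogenase kinase, rose from 13.8 and 13.4 CPM to 89.5 and 97.2 CPM (2.78, adjusted p = 2.09e-12), and *Ldha*, lactate dehydrogenase, from 85.9 and 92.3 CPM to 478 and 592 CPM (2.59, adjusted p = 1.09e-11). *Bnip3*, a mitophagy receptor, stood at 36.0 and 37.8 CPM in WT and at 193 and 281 CPM in *Patz1* KO. As in *Ddit4*, the second KO library was the higher one in all 3 genes. This order was not particular to the oxygen genes. It was also seen in *Asns* and in the p53 targets *Phlda3* (46.3 and 51.1 CPM), *Btg2* (172 and 185 CPM) and *Cdkn1a* (33.4 and 50.9 CPM), but not in *Sesn2*. *Sesn2* and *Ddit4* are p53 targets as well. Of 12 other p53 targets, 10 were higher and 1 lower (91.7% called, all genes 47.9%), with a median of 0.46. *Phlda3* (1.27, adjusted p = 4.07e-08), *Btg2* (1.05, adjusted p = 4.35e-08) and *Cdkn1a* (0.69, adjusted p = 0.00107) rose, while *Mdm2*, the p53 ligase that is itself a target, was lower (-0.33, adjusted p = 0.00774) in a call lost without either WT library (0.0768 and 0.0855). The number of these p53 targets called went down from 11 to 6 without WT replicate 1 and to 7 without WT replicate 2. The part of low oxygen or p53 in the rises of *Ddit4* and *Sesn2* was not tested.

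**Figure D4:**
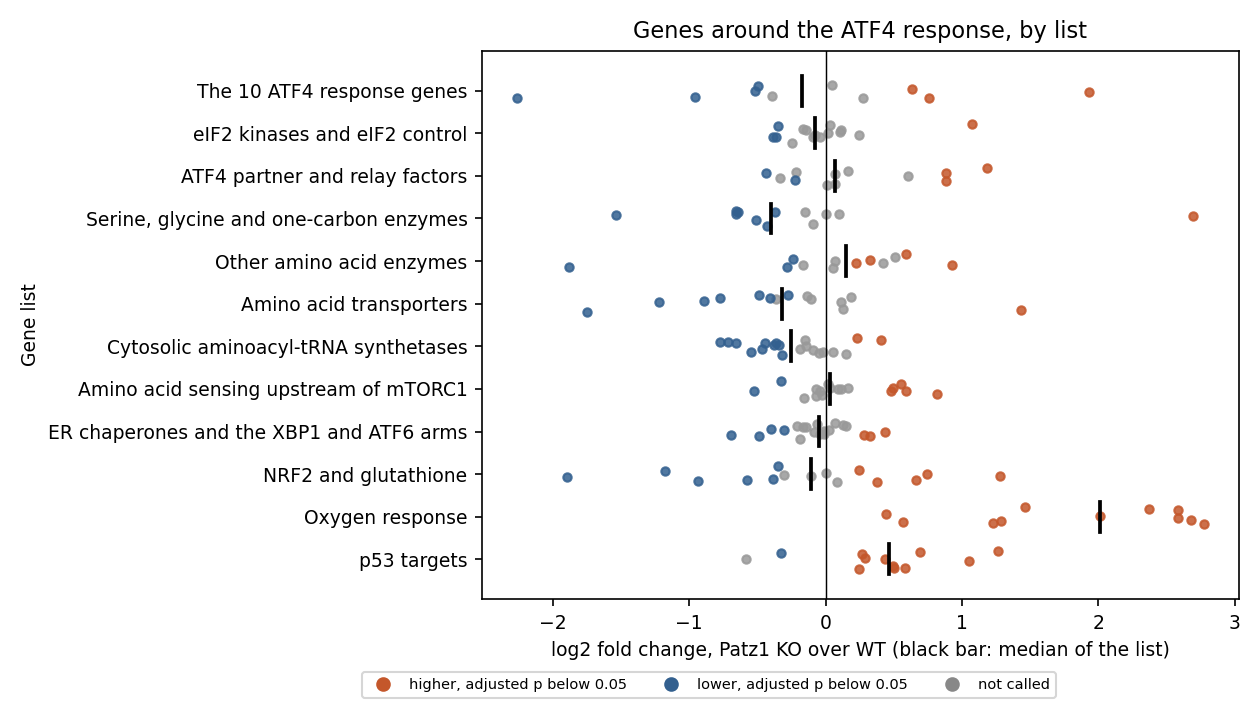
Log2 fold change (Patz1 KO over WT) of each tested gene, with 1 row of points per gene list, coloured by call, and a black bar at the median of the list. The 10 ATF4 response genes spread to both sides of zero, the serine, transporter and synthetase rows lie mostly below it, and all points of the oxygen row lie above it.

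Over the 163 genes of the 11 lists, each counted once, 158 could be tested, and 45 were higher and 45 lower, with a median log2 fold change of -0.02. This was 57.0% called, against 47.9% of all genes tested. By list, the share went from 26.7% (eIF2 control) to 91.7% (p53 targets) and 100% (oxygen response). The lists were chosen with earlier results of these data known, so this comparison is a description and not a test.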

How the data were processed

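RNA-seq of 4 libraries of cervical MNs was used, 2 WT and 2 *Patz1* KO, grouped by their labels. The deposited values are raw read counts for 23420 gene symbols. The libraries were stranded, with ribosomal RNA removed, and the authors mapped reads to mm10 with Bowtie 2. The submitters' processing notes name TopHat2 2.1.1, Bowtie2 2.3.1, featureCounts 1.6.2 and DESeq2, with no role given. The annotation and strand setting of the counting are not given in the sources used here, so overlapping genes are uncertain.

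Counts were filtered with filterByExpr (minimum count 10, 14269 genes left), normalized by TMM and tested with edgeR 4.0.16 (quasi-likelihood test, 2-sided, Benjamini-Hochberg, threshold 0.05) in R 4.3.3. The standard error is the absolute log2 fold change over the square root of F. RPKM used merged exons of GENCODE M21 on GRCm38, matched for 23042 symbols. An exact permutation test on 2 against 2 libraries cannot reach 0.05, and none was run. Total counts were 14769104 to 23881522, and the common biological coefficient of variation was 7.71%. The test was checked on simulated counts in which a small share of the genes was changed, in both directions. That check does not cover data like these, where 47.9% of the genes tested were called.

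The 10 genes and the 11 lists around them were chosen with earlier results of these data known. Named were the 10 genes, *Patz1*, the 4 eIF2 kinases and, in each list, the 2 called genes with the smallest p in each direction, of which 1 is not reported here. *Psph*, *Slc3a2*, *Slc7a5*, *Mthfd2*, *Ppp1r15a*, *Atf3*, *Pmaip1*, *Hspa5*, *Aars*, *Nqo1*, *Gclc*, *Cdkn1a* and *Bnip3* were added after their values were seen. *Hmox1* and *Gclm* were also added then, and are not among the named genes recomputed under the alternatives. Alternatives were no filter, library size alone, DESeq2's size factors, at least 10 counts in every library, DESeq2's Wald test (1.42.0), the replicate number as a block, thinning to the smallest library and dropping each library in turn, where the lone library left is assumed to vary like the other group. Counting error only is covered by depth, since reads carried no molecular identifiers.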

Additional observations from a re-analysis of the deposited data

How the results depend on the processing

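The 7 ATF4 response genes called were called in the same direction in each of the 11 alternatives, and 8 of the 10 were called without *Patz1* KO replicate 1, where *Ddit3* joined them. Among the 65 named genes, 671 of 714 values kept their direction and their side of the threshold, 27 lost a call, 5 gained one and 11 changed sign, all 11 in genes with no call. Signs changed for *Chac1* (-0.017 after thinning), *Eif2ak4* (-0.0054 with library size alone) and *Psph* (0.022 with no filter and 0.011 with DESeq2). Without 1 library, log2 fold changes went from -0.15 to 0.20 for *Chac1*, from -0.12 to 0.16 for *Eif2ak4*, from -0.070 to 0.080 for *Psph*, from -0.18 to 0.081 for *Ppp1r15a* and from -0.28 to 0.42 for *Atf3*. Leaving out a library changed the number of genes called to between 4521 (without WT replicate 2) and 7816 (without *Patz1* KO replicate 2) for all genes, against 6836 with all libraries. It gave 2 to 6 for eIF2 control (4 with all libraries), 3 to 6 for the ATF4 partners (5), 3 to 8 for the other amino acid enzymes (7), 7 to 15 for the synthetases (12), 4 to 8 for the ER genes (7), 6 to 11 for NRF2 and glutathione (11) and 6 to 11 for the p53 targets (11). All of the lowest counts came without a WT library, and the cause was not tested. The replicate numbers do not pair the samples by the labels, and the deviations of same-numbered libraries had a correlation of 0.03 across 14269 genes. With the replicate number as a block, 7361 genes were called, the same number of ATF4 response genes (7), and *Sars* was not (adjusted p = 0.051) while *Eif2ak2* was (0.0309). With library size alone the median of all genes was -0.03 and 46.8% of calls were higher, against 50.4% with TMM. Depth limits *Trib3* and *Slc7a11*, with 13 to 101 counts in a library.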
